A study of Homo sapiens with 3 samples.

Results

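The genes described here encode subunits of the replicative DNA helicase: the 6 minichromosome maintenance proteins MCM2 to MCM7, which form its ring-shaped motor, and the 4 GINS proteins GINS1 to GINS4, which join it. They were taken by name, with every probe set that the platform annotation assigns to them. All 10 genes were measured, out of 19775 genes with a probe set of their own, and they were represented by 23 probe sets. MCM2 to MCM7 form the ring that is loaded onto origins in G1 phase, when it is inactive. At the start of S phase GINS and CDC45 join the ring, which then unwinds the DNA ahead of the polymerases. Transcripts of these genes are abundant in dividing cells, are low in resting cells, and are classical outputs of E2F transcription factors.

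The arrays measured total RNA of NCI-H1299, an established human line of non-small cell lung cancer. There were 3 arrays, 1 from mock cells, 1 from cells transfected with miR-34a and 1 from cells transfected with ghR-34a. Cells received either RNA at 25 nM with a lipid reagent for 48 hours. What the mock cells received, and what ghR-34a is beyond its name, the labels do not say, and no control RNA of unrelated sequence was profiled.

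The microRNA miR-34a pairs with mRNAs through its seed, bases 2 to 8, and lowers their level or translation. Its mature strand is shown because it is the agent compared throughout, with the seed in capitals, as RNA from RefSeq (GRCh38.p14, chr1:9151735-9151756, minus strand):
hsa-miR-34a-5p: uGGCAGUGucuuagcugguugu
Target sites in the mRNAs of the helicase genes were not searched here.

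With 1 array per condition no spread between cultures could be estimated. The differences below therefore have no SD and no p-value, and they describe these 3 arrays. As the arrays hold RNA of whole cultures, fewer cells in S phase and less mRNA per cell cannot be told apart. A difference is given as log2(signal + 32) in one array minus that in another, and 2-fold means a difference of 1 on that scale. One probe set stood for each gene, the one with the highest mean, and genes were kept where that mean reached a signal of 68.6, the median of all probe sets. This left 11917 genes, the 10 helicase genes among them. The labels of the 2 transfectants against mock were checked on MET and CDK4, known targets of miR-34a. MET was at -1.58 with miR-34a and -1.54 with ghR-34a, and CDK4 at -1.04 and -0.90. These values were alike in the 2 arrays, so they cannot tell one transfectant from the other. Across 42 spike-in control probe sets the differences from mock had an SD of 0.13 (miR-34a) and 0.16 (ghR-34a), which covers only the technical steps after these RNAs were added. The 3 probe sets for 18S ribosomal RNA were at -0.49 to -0.26 with miR-34a and at -0.31 to -0.25 with ghR-34a, in the same direction as the helicase genes; the part of this in the results was not tested. GAPDH was at -0.022 and -0.11, and ACTB at 0.12 and 0.065. Of the cell markers checked, the keratins KRT8 and KRT18 and the filament gene VIM were above the filter. KRT19, EPCAM and CDH1 of epithelial cells were below it, as were NKX2-1 and NAPSA of the lung lineage, while SFTPB and SFTPC were low, at signals of 96.2 to 203. Of 3 leukocyte markers measured 1 was above the filter (CD3E, 57.8 to 113), and of 4 fibroblast and endothelial markers 2 were (COL1A1, 260 to 312, and PECAM1, 119 to 168).

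The promoters are shown first, because the helicase genes shared a sequence feature there. RefSeq windows from 250 bases before to 50 after the annotated start (GRCh38.p14) were matched for 7 of the 10 genes, namely MCM2, MCM3, MCM6, MCM7, GINS1, GINS2 and GINS3. They were searched on both strands for the letters of the E2F consensus, TTTCCCGC, TTTGGCGC, TTTCGCGC or TTTGCCGC. All 7 genes had at least 1 match. Among all 35116 windows 3.31% had one, and among the 9760 kept genes with a window 6.72% had one. Of 53 other replication genes with a window, 23 (43.4%) had one. The windows of the 4 genes that were at least 2-fold lower with miR-34a, and that of MCM6, which had the most matches, are printed with the matched bases in capitals:
MCM2, chr3:127598161-127598460, plus strand: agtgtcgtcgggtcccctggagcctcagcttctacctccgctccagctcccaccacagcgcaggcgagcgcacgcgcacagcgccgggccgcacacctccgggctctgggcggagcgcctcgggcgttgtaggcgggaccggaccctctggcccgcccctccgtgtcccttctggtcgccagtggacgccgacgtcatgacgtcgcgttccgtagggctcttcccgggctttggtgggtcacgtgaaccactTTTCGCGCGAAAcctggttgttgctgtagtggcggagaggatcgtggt
MCM3, chr6:52284693-52284992, minus strand: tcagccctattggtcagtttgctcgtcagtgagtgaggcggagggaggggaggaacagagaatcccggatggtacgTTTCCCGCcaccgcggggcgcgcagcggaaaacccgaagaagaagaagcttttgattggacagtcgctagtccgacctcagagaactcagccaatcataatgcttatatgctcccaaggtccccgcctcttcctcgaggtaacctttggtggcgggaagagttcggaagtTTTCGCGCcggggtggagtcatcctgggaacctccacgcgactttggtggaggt
MCM6, chr2:135876394-135876693, minus strand: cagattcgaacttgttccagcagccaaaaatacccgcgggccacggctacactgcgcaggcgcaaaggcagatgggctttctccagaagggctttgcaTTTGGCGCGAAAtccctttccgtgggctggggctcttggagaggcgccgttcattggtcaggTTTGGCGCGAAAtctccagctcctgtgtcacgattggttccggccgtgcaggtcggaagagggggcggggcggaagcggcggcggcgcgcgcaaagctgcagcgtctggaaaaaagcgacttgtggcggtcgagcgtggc
GINS1, chr20:25407423-25407722, plus strand: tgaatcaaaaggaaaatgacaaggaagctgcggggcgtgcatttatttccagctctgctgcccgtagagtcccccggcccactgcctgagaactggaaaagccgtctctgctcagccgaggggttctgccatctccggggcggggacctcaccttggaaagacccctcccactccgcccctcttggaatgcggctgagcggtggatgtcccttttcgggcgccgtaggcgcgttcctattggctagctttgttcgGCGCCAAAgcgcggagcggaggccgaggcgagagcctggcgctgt
GINS3, chr16:58392221-58392520, plus strand: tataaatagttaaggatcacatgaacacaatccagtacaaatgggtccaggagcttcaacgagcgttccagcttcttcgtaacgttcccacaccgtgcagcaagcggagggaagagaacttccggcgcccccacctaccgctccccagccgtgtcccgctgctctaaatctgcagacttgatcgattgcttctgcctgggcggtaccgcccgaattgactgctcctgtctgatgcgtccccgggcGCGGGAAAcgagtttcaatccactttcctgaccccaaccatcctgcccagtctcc

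In these windows several matches overlap, because a stretch such as TTTCGCGCGAAA reads as a match on each strand. MCM2 had 2 such matches just after the annotated start, from base 2 to base 13, where the start itself is base 0. In MCM3 there were 2 matches, 1 across the start, from -4 to 3, and 1 from -174 to -167. MCM6 had 4 matches, in 2 overlapping pairs that spanned -152 to -141 and -90 to -79. In GINS1 the single match lay at 5 to 12, and in GINS3 at -5 to 2. GINS2 had a single match at -31 to -24. MCM7 has 3 windows in the table. Its matches, at -187 to -180 and at -9 to -2, were both in the window with the most upstream start, and the other 2 windows had none. The CCAAT box, searched as CCAAT on both strands and able to overlap the E2F letters (in MCM7 it did, at -2 to 2), was found for 5 of the 7 genes and for 43.4% of the kept genes with a window. MCM2 and GINS3 had none. The cell cycle homology region of genes active in G2 phase and mitosis, searched as TTTGAA, was in 0 of the 7 and in 13.7% of the kept genes. A match describes the letters and not a bound site. With the helicase genes and the other replication genes listed below left out, the medians were close to mock with and without these letters. The 626 remaining genes with a match had a median of -0.029 with miR-34a and -0.041 with ghR-34a, against 0.044 and 0.018 for the 9074 without one. Below mock were 54.6% of the 626 with miR-34a and 54.0% with ghR-34a, against 43.9% and 47.3% of the 9074. Replication genes outside the list may remain among them, and a link to E2F was not tested.

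With miR-34a all 10 helicase genes were lower than in mock cells. Their median difference was -0.90, with quartiles of -1.06 and -0.70, while the median over all kept genes was 0.038. GINS1, GINS3, MCM2 and MCM3, 4 of the 10, were at least 2-fold lower, against 1.14% of all kept genes (136 lower and 145 higher, or 172 and 112 with each array centred on its median). Being below mock at all was common, at 44.8% of kept genes. At least 1.5-fold lower were 9 of the 10, all except MCM4, against 5.31% of kept genes. The ghR-34a array gave the same direction with a wider range. All 10 genes were below mock there, against 48.2% of kept genes, with a median of -0.70 (quartiles -0.97 and -0.30) beside 0.0096 over all genes. GINS1 and MCM5, 2 of the 10, were at least 2-fold lower, against 0.571% of kept genes. At least 1.5-fold lower were 5 of the 10, against 4.06%. The spike-in controls ranged from -0.40 to 0.40 between ghR-34a and mock. MCM4 (-0.32), MCM6 (-0.29), GINS2 (-0.25) and GINS4 (-0.22) lay within that range, and the other helicase genes lay below it. The 2 transfectants share the mock array, so their differences from it are not independent of each other. Most helicase genes are bright. Among the 5281 genes with a mean signal of at least 1000, 0.928% were at least 2-fold lower with miR-34a and 0.265% with ghR-34a, and of the 8 helicase genes in that range 3 and 2 were.

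**Figure D1:**
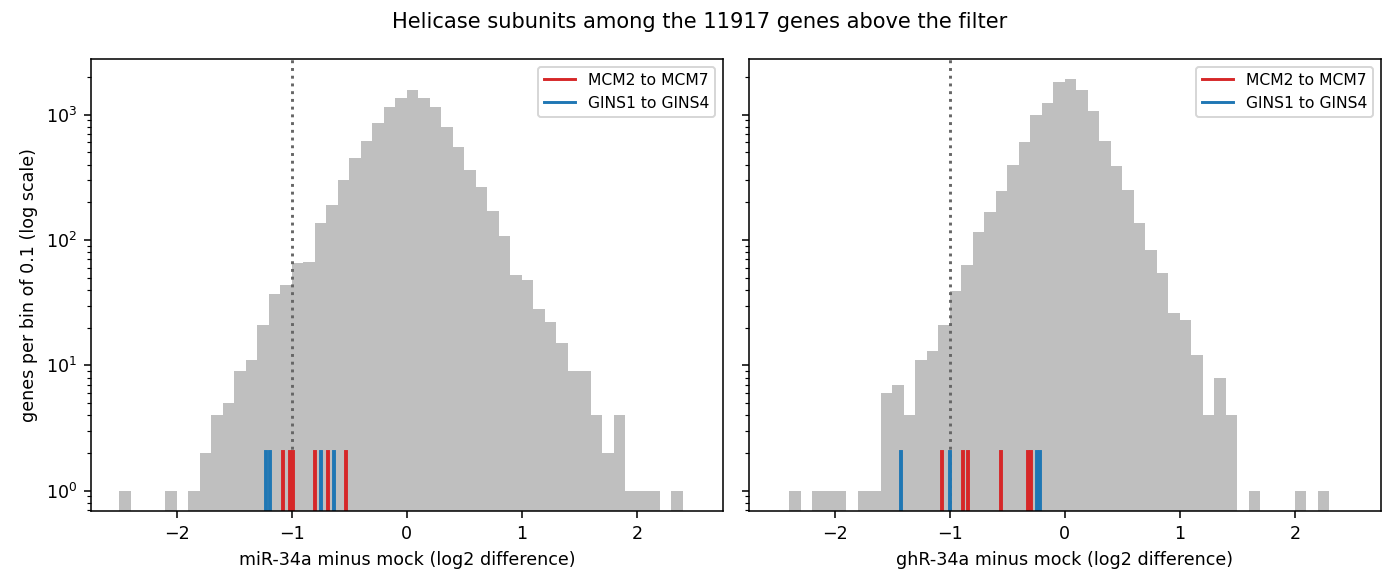
Log2 difference from mock of all 11917 kept genes (grey, number of genes per bin of 0.1 on a log axis) for miR-34a and ghR-34a, with the 6 MCM genes in red and the 4 GINS genes in blue. With both RNAs all 10 lines lie left of 0, between -1.23 and -0.53 for miR-34a and between -1.42 and -0.22 for ghR-34a; the dotted line marks 2-fold lower.

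Within the MCM ring the largest differences were those of MCM2, MCM3 and MCM5. MCM2, a regulatory subunit of the ring that also carries histones, had signals of 3145 in mock, 1477 with miR-34a and 1689.7 with ghR-34a. These are 47.0% and 53.7% of the mock signal, and differences of -1.07 and -0.88. Both transfectants were well below mock and close to each other. MCM2 was the 98th lowest of the 11917 genes with miR-34a. MCM3 had signals of 5286, 2591 and 2937 in mock, miR-34a and ghR-34a. The differences were -1.02 and -0.84. MCM2 and MCM3 had 1 probe set each, so no second measurement within the array was possible. MCM5, which with MCM2 forms the gate through which DNA enters the ring, had 2 probe sets. The brighter gave 2810.5, 1398 and 1324, with differences of -0.99 and -1.07. The dimmer gave 1011, 396 and 432, with differences of -1.28 and -1.17. MCM5 was thus lower to a like degree with both RNAs, and the order of the 2 transfectants differed between its probe sets.

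The subunits MCM4, MCM6 and MCM7, which can be isolated together as a core with helicase activity, showed smaller differences. MCM7 had signals of 11990.1, 6871 and 8136 in mock, miR-34a and ghR-34a, differences of -0.80 and -0.56. Its second probe set gave 8087, 4496 and 5476, or -0.84 and -0.56, so the 2 probe sets of MCM7 gave nearly the same differences. In RefSeq the MCM7 gene also holds the hairpins of MIR106B and MIR25, whose mature microRNAs were not measured here. MCM6 had signals of 12114 in mock, 7503 with miR-34a and 9896 with ghR-34a, differences of -0.69 and -0.29. Its dimmer probe set gave 374, 248 and 303, with differences of -0.54 and -0.28. For MCM6 the ghR-34a array lay between the other 2 with either probe set. MCM4, the ring subunit that receives much of the activating phosphorylation by the CDC7 kinase, had 5 probe sets. The brightest gave 6174, 4279 and 4934, with differences of -0.53 and -0.32, the smallest of the ring with miR-34a. The other 3 above the filter were at -0.67 to -0.53 with miR-34a and at -0.60 to -0.42 with ghR-34a. The fifth, at signals of 11.1, 23.7 and 53.5, was below the filter and had the opposite direction, at 0.37 and 0.99.

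Grouped in this way, which was done after the values were seen, the ring subunits did not overlap. All 4 probe sets of MCM2, MCM3 and MCM5 were between -1.28 and -0.99 with miR-34a, and the 8 of MCM4, MCM6 and MCM7 above the filter between -0.84 and -0.53. With ghR-34a the ranges were -1.17 to -0.84 and -0.60 to -0.28. The grouping followed the values, so the separation is a description without a test.

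With ghR-34a the GINS genes split more widely than those of the ring, at -1.42 to -0.22 against -1.07 to -0.29. With miR-34a the ranges were of like width, at -1.23 to -0.64 and -1.07 to -0.53. GINS1, the human counterpart of yeast Psf1, had signals of 3279 in mock, 1384 with miR-34a and 1202 with ghR-34a, differences of -1.23 and -1.42. These were the largest differences of the 10 genes on their brightest probe sets, 2.34-fold and 2.68-fold lower. GINS1 was the 48th lowest of all kept genes with miR-34a and the 19th lowest with ghR-34a. It was measured by 1 probe set. GINS3 was measured by 2 probe sets that were both low in both transfectants. The brighter gave 883, 369 and 426, with differences of -1.19 and -0.999, the second just short of 2-fold. The other gave 826, 253 and 281, with differences of -1.59 and -1.45, which were larger than those of any other helicase probe set.

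GINS2 and GINS4 were closer to mock, above all with ghR-34a. In that array they were the 2196th and 2499th lowest of all kept genes, and MCM4 and MCM6 the 1544th and 1767th. GINS2 had signals of 3442, 2037 and 2895 in mock, miR-34a and ghR-34a, differences of -0.75 and -0.25. Its 2 dimmer probe sets, at mock signals of 155 and 132, were at -0.35 and -0.49 with miR-34a and at -0.48 and -0.25 with ghR-34a. All 3 were therefore lower than mock in both arrays, but they did not give the same order of the transfectants. GINS4 was the dimmest gene on its best probe set, with signals of 385, 236 and 327 and differences of -0.64 and -0.22. Its second probe set above the filter gave 132, 152 and 145, on the other side of mock at 0.16 and 0.11. Its remaining 2 were below the filter, with signals of 29.3 to 56.1, and were at 0.043 and 0.066 with miR-34a and at -0.17 and 0.23 with ghR-34a. Of the 4 probe sets of GINS4, the best alone was below mock with miR-34a, and it and 1 below the filter were with ghR-34a. With all 4 averaged its difference was -0.091 with miR-34a and -0.013 with ghR-34a.

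**Figure D2:**
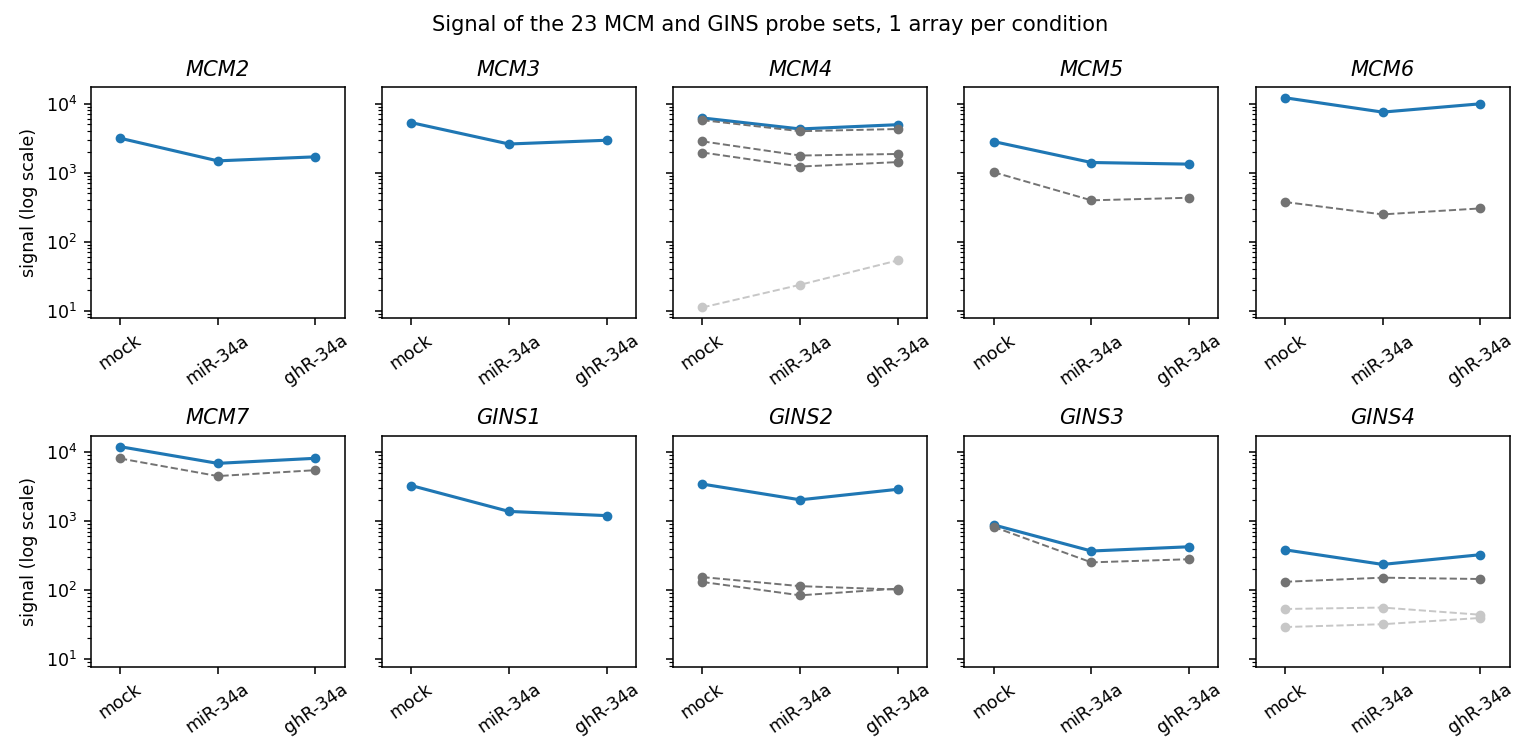
Signal on a log axis of each of the 23 probe sets in the mock, miR-34a and ghR-34a arrays, 1 panel per gene; the solid blue line is the brightest probe set, dashed dark lines are others above the filter and pale lines the 3 below it. The blue line is highest in mock in all 10 panels. The pale lines of MCM4 and GINS4 do not follow it, and neither does the dark line of GINS4, which is lowest in mock.

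Over the probe sets as a whole, 20 of the 23 were above the filter. Of these, 19 were below mock with miR-34a, against 45.9% of all probe sets above the filter, and 6 were at least 2-fold lower, against 1.13%. With ghR-34a 19 were below mock, against 49.7%, and 4 were at least 2-fold lower, against 0.556%. The exception in both arrays was the second probe set of GINS4. Probe sets of 1 gene share its transcripts and are not independent of each other.

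Set against each other at equal dose and time, the transfectants differed by less than 1.5-fold on the brightest probe set of each helicase gene. On the brightest probe sets 8 of 10 helicase genes were higher with ghR-34a than with miR-34a, against 44.4% of kept genes (58.9% with each array centred on its median). The median of ghR-34a minus miR-34a over the 10 was 0.20 (quartiles 0.18 and 0.36). Other replication genes, described below, shared this direction, with 53 of 61 higher with ghR-34a and a median of 0.19. Differences of 1.5-fold, found in none of the 10, were also rare among kept genes, at 2.24% upwards and 3.27% downwards. Counted from the lowest difference, the 8 genes that were higher ranked at 81.1% to 96.6% of kept genes. MCM5 and GINS1 ranked at 41.8% and 24.2%. GINS2 (0.50), GINS4 (0.42) and MCM6 (0.40) had the largest differences, all above the highest spike-in control, at 0.31. The lowest control, at -0.47, was larger in size than the differences of GINS4 and MCM6. MCM7 (0.24), MCM4 (0.20), MCM2 (0.19), GINS3 (0.19) and MCM3 (0.18) lay within the range of the controls, which was -0.47 to 0.31. GINS1 (-0.20) and MCM5 (-0.077) were on the other side, and MCM5 turned to 0.12 on its dimmer probe set. The other 2 probe sets of GINS2 were at -0.13 and 0.24, so 1 had the direction of the brightest and 1 did not. The second probe set of GINS4 was at -0.053 and that of MCM6 at 0.26. Without replicate arrays it cannot be said whether these differences exceed those between cultures.

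Most other genes of replication were lower too, by less at the median, though some single genes reached the range of the helicase genes. Of 61 genes from a list of helicase partners, origin licensing, origin firing, the fork, helicase removal and regulators, all were kept, and 55 were below mock with miR-34a and 52 with ghR-34a, against the 44.8% and 48.2% of all kept genes given above. Their medians were -0.42 and -0.22, between those of the helicase genes and of all genes. With miR-34a 2 of the 61 were at least 2-fold lower (3.28%, against 1.14% of kept genes), the transcription factor E2F2 (-1.09) and LIG1 (-1.04), the ligase that joins Okazaki fragments. With ghR-34a 0 were, against 0.571%. At least 1.5-fold lower were 19 of the 61 with miR-34a and 6 with ghR-34a, against 5.31% and 4.06% of kept genes. CDC45, the third part of the active helicase, was at -0.53 with miR-34a and -0.17 with ghR-34a, from signals of 1580.1, 1081 and 1402. MCM10, which helps to activate the assembled helicase, was at -0.94 and -0.61. The ring paralogues MCM8 (-0.36 and -0.20) and MCM9 (-0.19 and -0.19), which act in recombination repair, and the ring's binding protein MCMBP (-0.32 and -0.16) were closer to mock.

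Among the licensing factors that load the ring, CDC6 was at -0.77 with miR-34a and -0.59 with ghR-34a, and CDT1 at -0.28 and -0.031. GMNN, the inhibitor of CDT1, was at -0.93 and -0.90. The CDC7 kinase that activates the loaded ring was at -0.34 and -0.25, and its partner DBF4 at -0.19 and 0.19. E2F1 was at -0.36 and -0.095, from a mock signal of 243. The 9 licensing genes had a median of -0.28 with miR-34a, the 12 firing genes -0.43 and the 25 fork genes -0.50, and with ghR-34a -0.11, -0.22 and -0.29. The 6 helicase partners and paralogues had medians of -0.45 with miR-34a and -0.19 with ghR-34a, and the 4 regulators -0.57 and -0.27. All 25 fork genes were below mock in both arrays. The median of the 6 MCM genes was -0.90 and -0.70 in the same comparisons, and that of the 4 GINS genes -0.97 and -0.62.

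**Figure D3:**
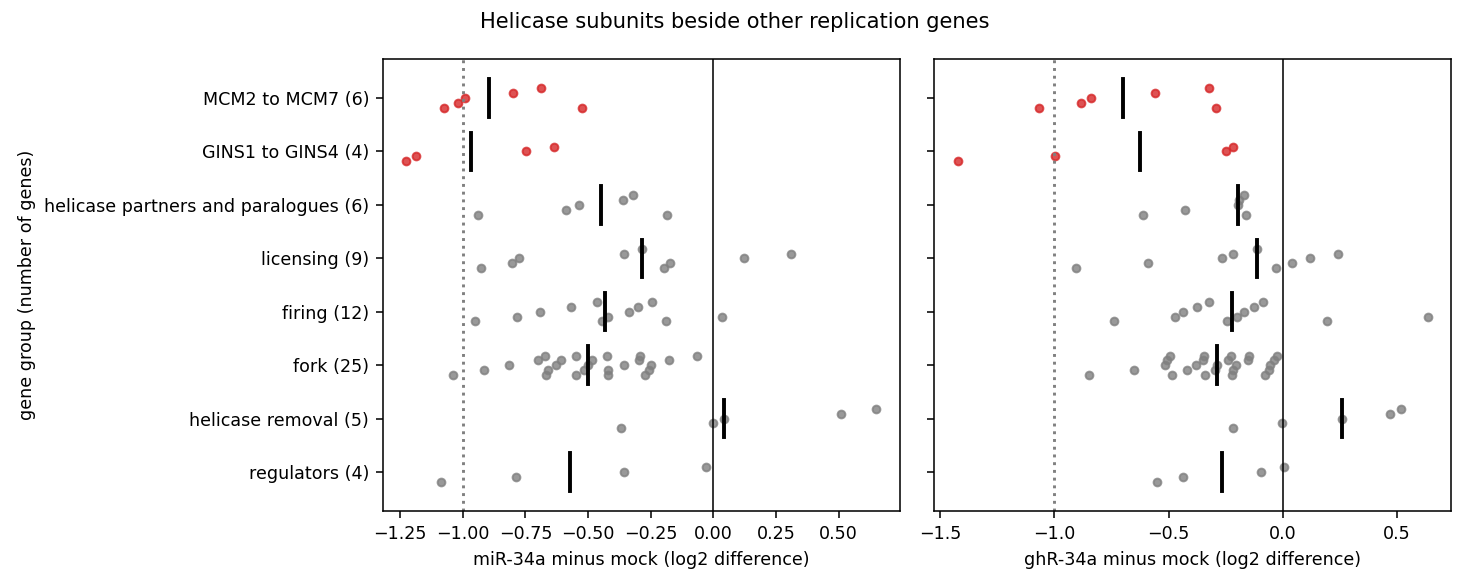
Log2 difference from mock for miR-34a and ghR-34a of the helicase genes (red) and of 61 other replication genes by role (grey), 1 point per gene with a black bar at the median of each group. The bars of the MCM and GINS groups, at -0.90 and -0.97 for miR-34a, lie left of those of the other groups, which share the range of the ring's values in part.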

How the data were processed

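Per the labels' protocols, 250 ng of total RNA was turned into biotinylated cRNA and hybridised to 1-colour arrays. The authors deposited linear probe set intensity, made with Affymetrix Expression Console per the submitters' processing notes. Its version, its settings and a genome build are not given in the sources used here. All 3 arrays had the same 2% trimmed mean, 500.1, so each carries a common scaling. No detection calls were used here, and background correction upstream affects low signals most.

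No further scaling was applied before log2(signal + 32) was taken, and the 62 control probe sets were left out. Probe sets with a single symbol were used (41091), those with several (1801) or none (11721) were not. All 10 helicase genes matched RefSeq by Entrez identifier. The number of arrays limits the precision, and only sizes are compared. The counting rule was tried on simulated data with planted differences beyond 2-fold. That cannot show how it treats genes near the limit, such as MCM3 and MCM5. The helicase genes, the replication and marker lists, the rules and the alternatives were chosen with earlier results of these data known. Named by rule beside the helicase genes were a fixed set of 12 replication genes, any of the list at least 2-fold from mock, MET and CDK4. The helicase removal and cyclin E genes under the other observations were named outside this rule, after their values were seen. Of the listed markers, 2 had no probe set used here. The alternatives were other pseudocounts, probe set rules, scalings, filters and size rules. Python 3.11.15 with numpy 2.4.6 and pandas 2.3.3 was used.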

Additional observations from a re-analysis of the deposited data

How the results depend on the processing

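All 10 helicase genes stayed below mock in both arrays under pseudocounts of 1 and 100, averaged probe sets, median centring and quantile normalization. So did the 8 that remain without probe sets ending in _s_at or _x_at (MCM2 and MCM7 have no others) and the 9 that pass a filter at the 75th percentile (GINS4 does not). The median difference was between -0.99 and -0.85 with miR-34a, and between -0.84 and -0.66 with ghR-34a. Counts depended on the size rule: at 1.5-fold 9 genes were lower with miR-34a and 5 with ghR-34a, and at 3-fold 0 and 0. At 2-fold they were 4 to 5 and 2 to 3 under the other planned settings. Between the transfectants, 2 of the 10 genes were lower with ghR-34a, but 1 with averaged probe sets and 1 with median centring; of the replication list 8 were lower, but 1 with median centring. Of single-gene differences, 6 with miR-34a, 4 with ghR-34a and 4 between transfectants moved by more than the spike-in SD, all of them with averaged probe sets or without _s_at and _x_at probe sets. GINS2 between transfectants turned to -0.13 and MCM5 to 0.12 without those probe sets. Among genes with a mean signal of at least 1000, a limit chosen after seeing the data, 3 of 8 were 2-fold lower with miR-34a. No paired analysis was possible because each condition has 1 array. Signal over background is not known for the dim probe sets, such as those of GINS4.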

Other observations

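Of 5 genes that take the helicase off DNA at the end of replication, 2 (40.0%) were below mock in each transfectant array, against 44.8% of kept genes with miR-34a and 48.2% with ghR-34a. They were named after their values were seen, and their difference from the helicase genes was not tested. CUL2, a scaffold of the ubiquitin ligase that marks the helicase for removal, had signals of 1245 in mock, 1971 with miR-34a and 1734 with ghR-34a, differences of 0.65 and 0.47. TRAIP, a ubiquitin ligase that removes the helicase in mitosis, was at 0.51 and 0.52, from a mock signal of 108. LRR1, the receptor that brings CUL2 to the helicase, was lower, at -0.37 and -0.22. FAF1 and UBXN7, cofactors of the segregase that extracts the ring, were at -0.00075 and 0.044 with miR-34a and at -0.0037 and 0.26 with ghR-34a. The median of the 5 was 0.044 with miR-34a and 0.26 with ghR-34a.

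Cyclin E genes, whose kinase starts S phase, went apart. CCNE1 was at 0.033 with miR-34a and 0.63 with ghR-34a, from signals of 961, 984 and 1509, while CCNE2 was at -0.78 and -0.74. Both were named after their values were seen, and no test was possible.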
